A study of Bos taurus with 2 samples.

Results

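The segment described here is the stretch of the male-specific region (MSY) of the cattle Y chromosome that lies on the short arm between the TSPY gene array and the centromere. Its members are the bins of 5 kb that lie wholly within Y:10385001-13120000 and hold at least 5 CpG sites covered by at least 10 PacBio reads. All 547 possible bins met this rule, of 11882 bins on the whole chromosome. Lung DNA of cattle was read for CpG methylation by Oxford Nanopore (ONT) and by PacBio, with 1 library for each of the 2 platforms and no treatment. The labels give no age, strain or replicate. The study took this Y chromosome from a fetus of a Wagyu by Charolais cross. With 1 library per platform no test between samples was possible, so every value below is a description and each SD is a spread along the chromosome.

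In mammals most CpG cytosines carry a methyl group, and stretches where CpGs are unmethylated are commonly found at promoters and other regulatory DNA. TSPY encodes a testis-specific protein and is carried on the bovine Y chromosome as a long tandem array of gene copies and pseudogenes. ZNF280A and ZNF280B are zinc-finger genes whose Y-linked copies form multicopy families in cattle. No reference sequence was at hand for the segment, so sites are given by position and by spacing and no bases are printed. Positions refer to the Y chromosome in ARS-UCD2.0.

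The segment was highly methylated over nearly all of its length, at a nearly constant level and CpG density, and then fell sharply in its last 100 kb. Over the 547 bins the PacBio level averaged 74.5% ± 7.23 (SD), with a median of 75.9% and a range from 17.2% to 81.7%. The ONT level averaged 67.6% ± 6.42, with a median of 68.6% and a range from 20.2% to 74.1%. Read from the TSPY side, 527 consecutive bins from 10385001 to 13020000 held between 172 and 240 CpGs, and the remaining 20 bins up to 13120000 held between 17 and 74. These stretches are called the repeat part and the CpG-poor end. The split was placed, after the CpG counts had been seen, at the first bin with fewer than 100 CpGs. The repeat part averaged 75.7% ± 2.89 on PacBio (range 67.0% to 81.7%) and 68.8% ± 1.93 on ONT (62.6% to 74.1%). The CpG-poor end averaged 42.2% ± 11.7 on PacBio (17.2% to 70.2%) and 37.6% ± 9.93 on ONT (20.2% to 60.3%). The platforms therefore placed nearly every bin of the CpG-poor end below the bins of the repeat part, and on each the highest bin of the end overlapped the repeat part or came close to it.

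The change at the boundary took place between neighbouring bins. The last bin of the repeat part had 172 CpGs and a level of 75.5% on PacBio and 66.4% on ONT. The next bin, 13020001 to 13025000, had 21 CpGs and a level of 17.2% on PacBio and 20.2% on ONT, the lowest bin of the segment on both platforms. The other 4 of the 5 lowest PacBio bins also lay in the CpG-poor end, with levels from 24.2% to 33.5%. The 5 highest PacBio bins all lay in the repeat part, at 81.2% to 81.7%, and were spread from 10455001 to 12940000. At the TSPY edge that the rule set, levels were alike on either side. The first bin inside had 80.1% on PacBio and 68.7% on ONT, and the bin just outside, in the TSPY array, had 79.4% and 68.7%. At the other edge the last bin inside had 53.2% and 51.3%, and the bin just outside had 48.3% and 40.6%.

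**Figure D1:**
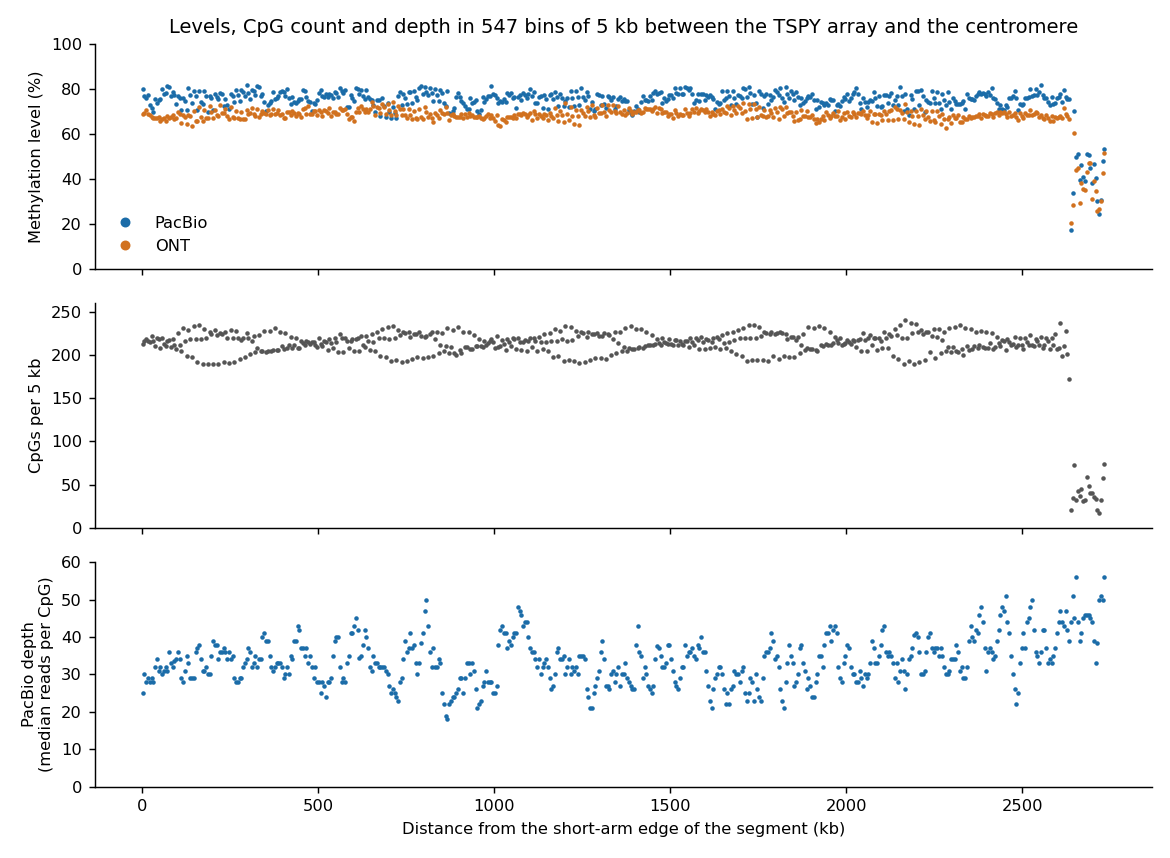
Methylation level (%), CpGs per bin and median PacBio reads per CpG in the 547 bins, against distance from the short-arm edge (kb), with 1 point per bin and platform. Levels and CpG counts were nearly flat over 2635 kb and fell together in the last 100 kb, where PacBio bins lay between 17.2% and 70.2%.

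ONT read lower than PacBio in 533 of the 547 bins, that is in nearly all of them as on the whole chromosome, where the share was 97.8%. On average ONT minus PacBio came to -6.84 points of methylation, against -8.31 in the TSPY array, -9.14 in the MSY on the other side of the array and -18.3 between the segment and the centromere. The upper ONT strand row minus the lower averaged 0.606 points over the bins of the segment, with a mean absolute gap of 2.22 points, and 12.6 points (13.4 absolute) in the 1000 kb towards the centromere. The platforms ordered the bins alike where levels varied widely, with r = 0.951 over the 20 bins of the CpG-poor end. Within the repeat part, where bins differed little, r was 0.352 over 527 bins. Bins of 1 library share reads and repeats and are not independent.

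Depth varied along the segment, with bin medians from 18 to 56 PacBio reads, and did not follow the levels closely. The 113806 CpGs of the segment carried 3793657 read observations, with a median of 33 reads per CpG, a 5th percentile of 24 and a 95th percentile of 44. No CpG fell below the minimum of 10 reads. A CpG at the medians had 28 of 33 reads modified, or 84.8%, with an exact 95% interval from 68.1% to 94.9%, so single CpGs are known only roughly and bin means much better. Such intervals cover counting error only. Spearman's rho of depth with the bin level was -0.0446 on PacBio and -0.183 on ONT. The ONT depth is unknown. The CpG-poor end was the deeper stretch, with a median of 46 reads against 33.

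Level rose with CpG density across the segment. Spearman's rho of the level with the CpG count per bin was 0.455 on PacBio and 0.493 on ONT over 547 bins. It was 0.391 and 0.433 within the repeat part, and 0.822 and 0.763 within the CpG-poor end, so the order did not rest on the contrast between those stretches alone. The bins of the repeat part cover the same repeat unit again and again, as described below, and are not independent. The relation was weaker with bins of 10 kb, at 0.286 and 0.302, and across single CpGs by the number of CpGs within 500 bp, at 0.278 and 0.237. By class, 16 bins with 5 to 49 CpGs averaged 38.9% on PacBio and 34.7% on ONT. The 4 bins with 50 to 99 CpGs averaged 55.6% and 49.4%. The 55 bins with at least 100 but under 200 CpGs averaged 72.8% and 66.8%, and the 472 bins with at least 200 CpGs averaged 76.0% and 69.0%. Each class was higher than the one before it on both platforms, although single bins of the 2 denser classes overlapped widely (67.0% to 77.9% and 68.2% to 81.7% on PacBio). The 3 bins with the fewest CpGs (17, 20 and 21) had 24.2%, 30.1% and 17.2% on PacBio, and the 3 with the most (237, 237 and 240) had 77.4% to 77.6%.

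The same order held for single CpGs by the number of other CpGs within 500 bp. The 119 CpGs with 0 to 4 neighbours averaged 33.3% on PacBio and 30.5% on ONT. The 308 CpGs with 5 to 9 neighbours averaged 37.4% and 34.5%, and the 310 with 10 to 19 averaged 52.0% and 45.0%. From 20 to 29 neighbours upwards almost all CpGs belonged to the repeat part, and means ran from 68.3% to 84.2% on PacBio and from 61.9% to 76.4% on ONT. The SD over CpGs within a class was 13.3 to 25.8 points on PacBio, so classes overlapped at the level of single CpGs.

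The sign of this relation differed from place to place on the short arm. In the MSY on the other side of the TSPY array, rho with the CpG count was -0.137 on PacBio and -0.124 on ONT over 468 bins, and 312 bins with 5 to 49 CpGs averaged 75.8% ± 16.6 on PacBio. The 16 segment bins of the same class averaged 38.9% ± 9.68 and the 43 bins of that class between the segment and the centromere 38.8% ± 8.42. On PacBio these bins of the CpG-poor end therefore lay close to those that follow them and below the mean of the like bins before the TSPY array. Among CpGs with 60 or more neighbours the order was the opposite one. Those of the segment averaged 84.2% on PacBio over 736 CpGs, while those of the MSY before the TSPY array averaged 22.3% over 1898. No test of these differences was possible with 1 library.

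**Figure D2:**
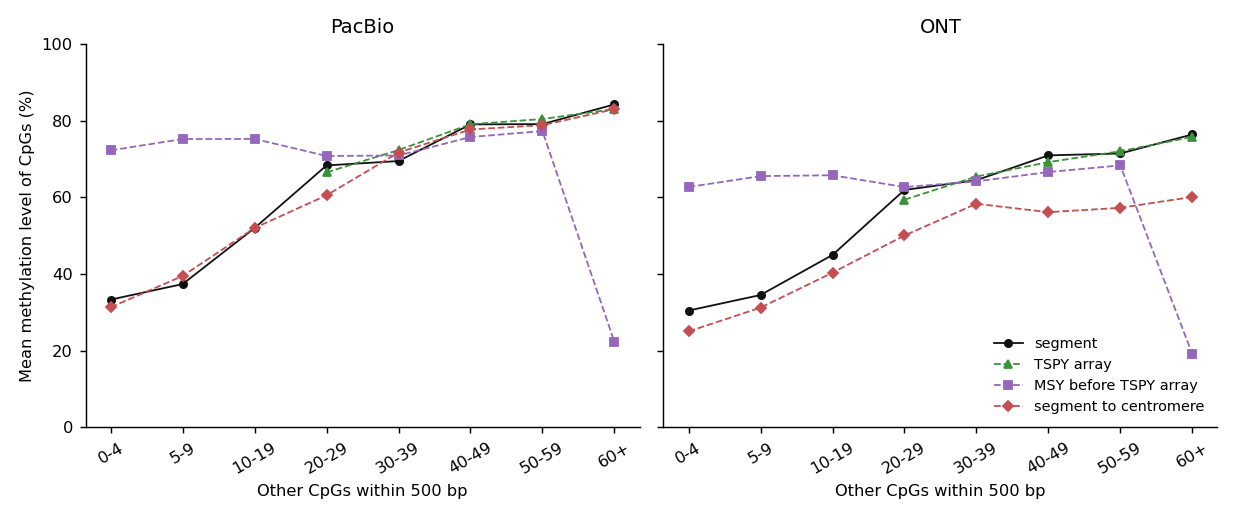
Mean methylation level (%) of single CpGs by the number of other CpGs within 500 bp, for the segment and 3 neighbouring stretches, PacBio on the left and ONT on the right, with points of fewer than 50 CpGs left out. In the segment the PacBio mean climbed from 33.3% to 84.2%, while the MSY before the TSPY array stayed near 72.3% at the CpG-poor side and fell to 22.3% at the dense side.

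The CpGs of the repeat part recurred at a fixed spacing. Among all distances from 20 bp to 20 kb between CpGs of the segment, the commonest was 7538 bp, found for 14231 pairs, while a typical distance had 4823 (median). The TSPY array gave 7541 bp. The MSY before that array gave 7533 bp, found for 1804 pairs against a median of 713. Starting at the last annotated protein-coding TSPY copy before the segment, LOC132344614, and setting each next copy where its CpGs best matched the positions shared by all copies, 349 copies followed one another without a gap from 10387740 to 13016374. They covered 2629 kb, or 96.1% of the segment, and the next position matched to 61.3%, below the minimum of 70%, while the copies matched to 96.5% at the median and to 73.2% at the lowest. Of the 349 copies, 303 were within 10 bp of 7538 bp in length, the shortest was 6940 bp and the longest 7554 bp. A copy held 323 CpGs at the median (316 to 340). Of these, 55.4% recurred at a shared distance in the next copy (median, range 21.5% to 100%). The distance used was the one, within 80 bp of the copy's length, at which most CpGs recurred. Units of nearly the length found in the TSPY array thus followed one another over the whole repeat part.

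RefSeq lists 3 pseudogenes in this array, LOC132344615, LOC132344616 and LOC132344617, which the study's gene table assigns to the TSPY1 family. They start 31, 27 and 29 bp after the start of a copy as set from the CpGs alone, which puts all of them in the position of the TSPY gene within the unit. Their mean levels over the gene were 77.5%, 73.8% and 78.5% on PacBio and 69.0%, 66.1% and 67.9% on ONT. These lie within the range of the whole copies, which ran from 68.6% to 81.0% on PacBio (mean 75.7% ± 2.32 over 349 copies) and from 64.2% to 72.3% on ONT (68.8% ± 1.38). The part of the unit that corresponds to the gene (2248 bp) averaged 77.9% on PacBio (70.0% to 84.0%) and 70.4% on ONT (65.7% to 74.7%) over the 349 copies, and the rest of the unit 74.8% and 67.9%. In the 44 protein-coding copies of the TSPY array the gene averaged 78.3% ± 2.35 and 69.2% ± 1.39, and the rest of the unit 77.0% ± 2.09 and 68.3% ± 1.16. The ranges of segment copies and coding copies overlapped in both parts of the unit on both platforms.

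The level along the unit recurred from copy to copy. For CpGs found again in the next copy, the PacBio levels of the pair correlated with r = 0.769 and the ONT levels with r = 0.854 over 68529 pairs. For copies 10 places apart, r was 0.747 and 0.843. For pairs taken 3769 bp apart, which is out of step with the unit, r was 0.0559 and 0.169. The difference between the ONT strand rows also recurred, with r = 0.564. CpGs of one library share depth and local sequence, and whether reads of one copy were placed on another copy was not tested, so copies may be less distinct in the data than in the animal.

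In windows of 250 bp along the unit, averaged over the 349 copies, levels moved between 43.7% and 87.3% on PacBio. The lowest window was at 5500 to 5749 bp from the start of the gene, with 43.7% ± 8.70 (SD over copies) on PacBio and 44.4% ± 5.79 on ONT, and it also held the fewest CpGs, 4.09 per copy. The highest was at 750 to 999 bp on PacBio, within the gene (87.3% ± 3.89), and at 3500 to 3749 bp on ONT (79.6% ± 2.28). ONT read above PacBio in 4 of the 30 windows, among them 2500 to 2749 bp, where the ONT mean was 62.3%, higher by 3.28 points. Windows with more CpGs had higher levels, with r = 0.661 on PacBio and 0.630 on ONT over 30 windows. The 44 coding TSPY copies showed much the same profile, with r = 0.862 on PacBio and 0.886 on ONT against the segment copies. The largest departure between them was again at 5500 to 5749 bp, where the coding copies had 63.5% ± 12.5 on PacBio and 6.61 CpGs per copy. In this comparison the coding copies were counted from their gene starts with no further shift, and how far shifted positions within the unit enter the departures was not tested.

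**Figure D3:**
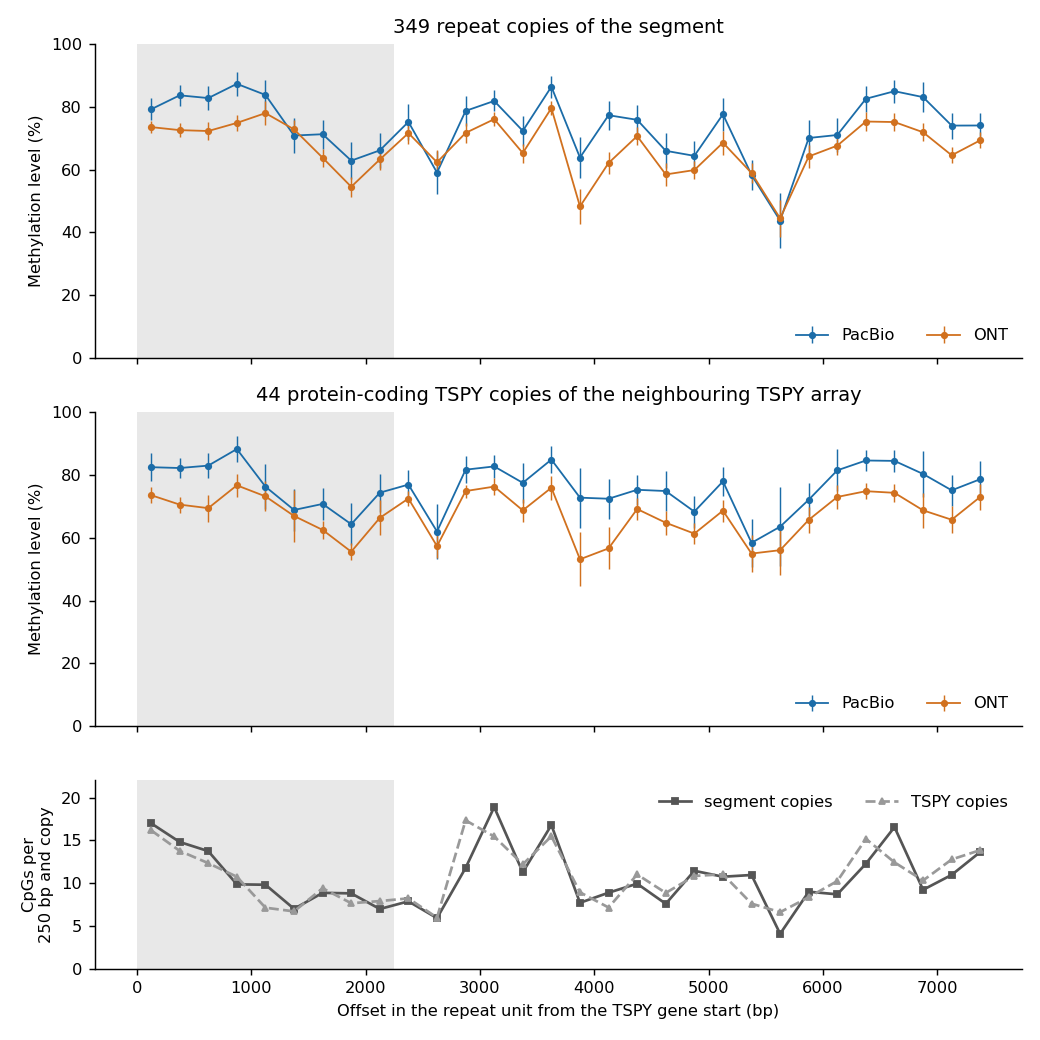
Mean methylation level (%) in windows of 250 bp of the repeat unit, with error bars of 1 SD over copies, for the 349 segment copies (top) and 44 coding TSPY copies (middle), and CpGs per window and copy (bottom), against the offset from the gene start (bp), with the gene shaded. Both sets of copies had peaks and troughs at nearly the same offsets, with the segment's lowest window, 43.7% on PacBio, at 5500 to 5749 bp.

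Unmethylated CpGs, defined as below 20% on both platforms, were rare in the segment. They numbered 704 of 113806, or 0.619%, against 6.5% of the CpGs of the whole chromosome. On PacBio alone 2118 CpGs, or 1.86%, were below 20%, against 8.53% for the chromosome. The repeat part held 554 of the 704 (0.490% of its CpGs) and the CpG-poor end 150 (18.7% of its 803 CpGs). The TSPY array had 0.409%, close to the repeat part, the MSY before it 8.27%, and the stretch towards the centromere 1.05%. In that last stretch 69.4% of the CpGs had 60 or more neighbours within 500 bp. Among its CpGs with 0 to 4, 5 to 9 and 10 to 19 neighbours, 35.1%, 23.5% and 12.4% were unmethylated. The CpG-poor end was close to this in the same classes, at 31.9%, 24.4% and 12.3%. Intermediate levels were common in the segment, with 43.1% of its CpGs between 20% and 80% on PacBio and 69.3% on ONT.

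In the repeat part the unmethylated CpGs were isolated or in pairs and recurred at certain places of the unit. No run of 3 or more neighbouring unmethylated CpGs was found there. The copies held 553 such CpGs, in 291 of the 349 copies and with at most 6 in 1 copy, and 29 of the 559 windows of 10 bp with a CpG held all of them. Windows of 10 bp with a mean PacBio level below 30% over at least 100 copies marked 8 sites, padded by 10 bp on either side. These sites covered 250 bp of the unit and 2.99% of the CpGs, and held 462, or 83.5%, of the unmethylated CpGs. They were chosen by their PacBio level after it had been seen, so their PacBio levels and their share of the unmethylated CpGs, which the choice fixes in part, are given as a description. The ONT levels were not used in the choice. A window held by fewer copies was left out by this rule, at 5740 bp, where 27 of 38 CpGs were unmethylated and the means were 19.3% on PacBio and 15.1% on ONT.

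The site with the lowest PacBio mean was at 4270 to 4299 bp, outside the gene. It held a single CpG in each of 348 copies, with a PacBio level of 13.6% ± 6.95 (lowest 4.30%, median 11.2%, highest 39.2%) and an ONT level of 18.6% ± 5.64 (5.84%, 18.5%, 32.6%). Of these CpGs 171, or 49.1%, were below 20% on both platforms. In all 26 windows of 100 kb with at least 5 such CpGs the median PacBio level at this site was between 7.30% and 17.5%, so the low level was present along the whole array. Next on PacBio, and lowest on ONT, was 3410 to 3439 bp, present in 349 copies, with 19.4% ± 9.76 on PacBio and 17.9% ± 5.70 on ONT, where 131 CpGs were unmethylated. The ONT strand rows had means of 22.8% and 13.0% at this site and of 15.3% and 21.9% at 4270 to 4299 bp, on either side of the threshold of 20%. The site at 2640 to 2679 bp had 23.0% ± 11.7 on PacBio but 34.7% ± 6.63 on ONT, and 7 of its 347 CpGs were unmethylated by the rule. The site at 1570 to 1599 bp, inside the gene, had 26.2% ± 13.4 and 23.5% ± 6.21, with 51 of 349 unmethylated. The remaining 4 sites had ONT means of up to 53.1%. The lowest of these on ONT was 7190 to 7219 bp, which held 692 CpGs in 346 copies, of which 68 were unmethylated. At 5570 to 5599 bp, in the lowest window of the unit, the levels were 23.9% ± 12.9 and 25.9% ± 6.57, with 30 of 338 unmethylated. The site at 4490 to 4519 bp held 412 CpGs in 349 copies, at 30.8% ± 23.6 on PacBio, with 4 unmethylated. That at 5320 to 5349 bp held 534 CpGs in 349 copies, at 47.4% ± 29.4 on PacBio and 53.1% ± 16.1 on ONT, and none of them was unmethylated, so as padded it was not a low site on either platform. Its ONT strand rows had means of 43.4% and 62.8%, the widest gap of the 8 sites.

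The low sites differed in the CpG density around them. The median number of other CpGs within 500 bp ran from 30 at 1570 to 1599 bp to 54 at 3410 to 3439 bp and was 36 at 4270 to 4299 bp. Over all unmethylated CpGs of the repeat part it was 37, against 45 for all its CpGs. The 250 bp windows that hold the sites at 4270 to 4299 and 3410 to 3439 bp averaged 75.8% and 72.3% on PacBio. These were therefore low CpGs among methylated neighbours.

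The same 8 sites were then read in the coding TSPY copies. Each of the 44 copies was shifted to the unit by its CpG positions, those at the site among them, without regard to levels. After this shift, which favours such a match, 44 of 44 held a CpG at 4270 to 4299 bp. The levels of these CpGs were 19.4% ± 10.8 on PacBio (5.0%, 16.5%, 43.5% for lowest, median and highest) and 21.9% ± 5.90 on ONT. At 3410 to 3439 bp the 44 copies had 21.0% ± 9.63 and 17.8% ± 6.33, at 2640 to 2679 bp 27.0% ± 12.3 and 35.5% ± 5.97, and at 1570 to 1599 bp 29.4% ± 14.7 and 24.0% ± 5.06. At these 4 sites the PacBio mean was higher in the coding copies than in the segment copies, whose low PacBio levels had chosen the sites, and this was not tested. At 3 others, 5320 to 5349, 5570 to 5599 and 7190 to 7219 bp, the coding copies averaged 72.2%, 50.8% and 64.3% on PacBio, against 47.4%, 23.9% and 31.8% in the segment copies, but these windows held 113, 47 and 106 CpGs in the coding copies, and a change of level cannot be told apart from a change of the CpGs present. At 4490 to 4519 bp the coding copies had 25.4% and 33.4%, against 30.8% and 40.5% in the segment copies.

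**Figure D4:**
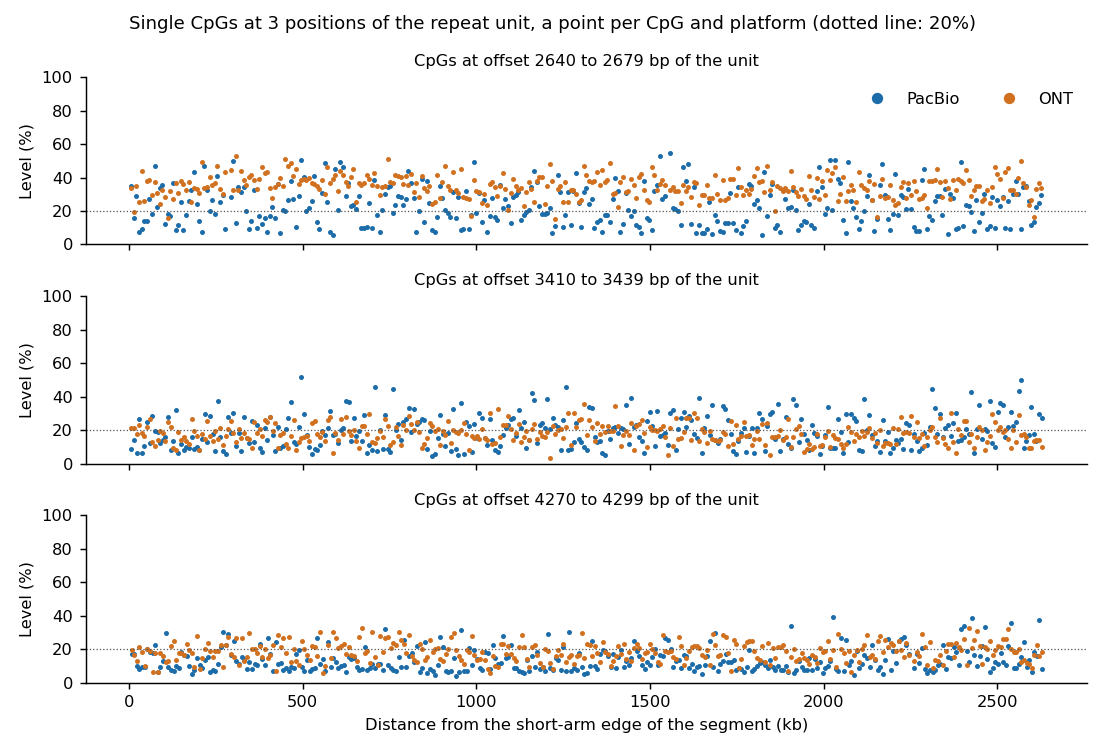
PacBio and ONT methylation level (%) of single CpGs at 3 offsets of the repeat unit, against the distance of the copy from the short-arm edge of the segment (kb), with 1 point per CpG and platform and a dotted line at 20%. At 4270 to 4299 bp PacBio levels lay between 4.30% and 39.2% in all copies with that CpG, and at 2640 to 2679 bp most ONT points lay above the PacBio points.

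The CpG-poor end differed from the array in kind. It held 803 CpGs in 100 kb, with a median of 36 per bin, and 15 of its 20 bins were below 50% on PacBio, against 38.6% of the bins of the chromosome and 0 of the 527 bins of the repeat part. It made up 3.66% of the segment's length and 0.706% of its CpGs but held 21.3% of its unmethylated CpGs. All 11 runs of 3 or more neighbouring unmethylated CpGs, at most 500 bp apart, lay here, and 45 CpGs belonged to them. Levels were higher where CpGs were dense, and the 32 CpGs with 40 to 49 neighbours, all in a single cluster, had 81.1% on PacBio and 71.2% on ONT.

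Of the runs with at least 5 CpGs, 2 lay in the segment, against 608 on the chromosome, 29 in the MSY before the TSPY array, 0 in that array and 4 towards the centromere. With the upper ONT row alone there was 1 such run in the segment, and with the lower row alone there were 3. The count also hung on the threshold, with 0 runs below 10%, 6 below 30% and 4 on PacBio alone. The run at Y:13028231-13029405 held 8 CpGs in 1175 bp, with PacBio levels from 3.10% to 10.2% (mean 5.55%) and ONT levels from 2.78% to 16.4% (mean 10.2%). Its depth was 46 to 49 PacBio reads per CpG, of which 1 to 4 were modified. For the CpG with the fewest, 1 of 47 reads, the exact 95% interval was 0.0539% to 11.3%, and for that with the most, 4 of 49, it was 2.27% to 19.6%. The run spanned the higher-coordinate end of LOC132344426, at 13029277, a protein-coding gene of the ZNF280B family that the study's gene table places on the minus strand, so that this end is its 5′ side. The run at Y:13044210-13045552 held 8 CpGs in 1343 bp, with PacBio levels from 3.0% to 12.2% (mean 7.58%) and ONT levels from 1.04% to 18.6% (mean 10.6%) at 34 to 36 reads. It overlapped no gene of the RefSeq table, and the exact intervals of its CpGs were 0.0744% to 15.3% for 1 of 34 reads and 3.11% to 26.1% for 4 of 36.

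LOC132344426 (13023294 to 13029277) was the only protein-coding gene of the segment. Its 37 CpGs averaged 30.4% on PacBio and 27.6% on ONT and ranged from 2.90% to 93.5% on PacBio, so the body held both low and high CpGs, and 18 of the 37 were unmethylated. In the CpG-poor end as a whole the share was 18.7%, and among its CpGs with 0 to 4 neighbours within 500 bp it was 31.9%. Within 1 kb of the gene's 5′ side 9 CpGs averaged 9.23% and 11.8%, with 7 of them unmethylated, and within 1 kb of its other end all 6 CpGs were unmethylated, at a PacBio mean of 8.30%. Both ends were thus low, and expression of the gene was not analysed here.

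The other genes of the CpG-poor end are pseudogenes. LOC132344618, a ZNF280A pseudogene of 1594 bp at 13052916 to 13054509, had 20 CpGs at 36.5% on PacBio and 29.1% on ONT, of which 3 were unmethylated. LOC132344427, a ZNF280B pseudogene that spans 39117 bp from 13066530 to 13105646, had 284 CpGs at 43.4% and 38.9%, and 51 of them were unmethylated. Its levels ran from 4.0% to 95% on PacBio, and 4 of the runs of 3 or 4 unmethylated CpGs lay in it, with means between 5.87% and 9.07%. These shares of unmethylated CpGs were near that of the whole CpG-poor end, 18.7%. Within 1 kb of the ends of LOC132344618, 2 of 19 and 4 of 19 CpGs were unmethylated, at 38.8% and 43.9% on PacBio, and near those of LOC132344427, 5 of 25 and 5 of 12, at 46.8% and 26.7%. No test between genes was possible.

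**Figure D5:**
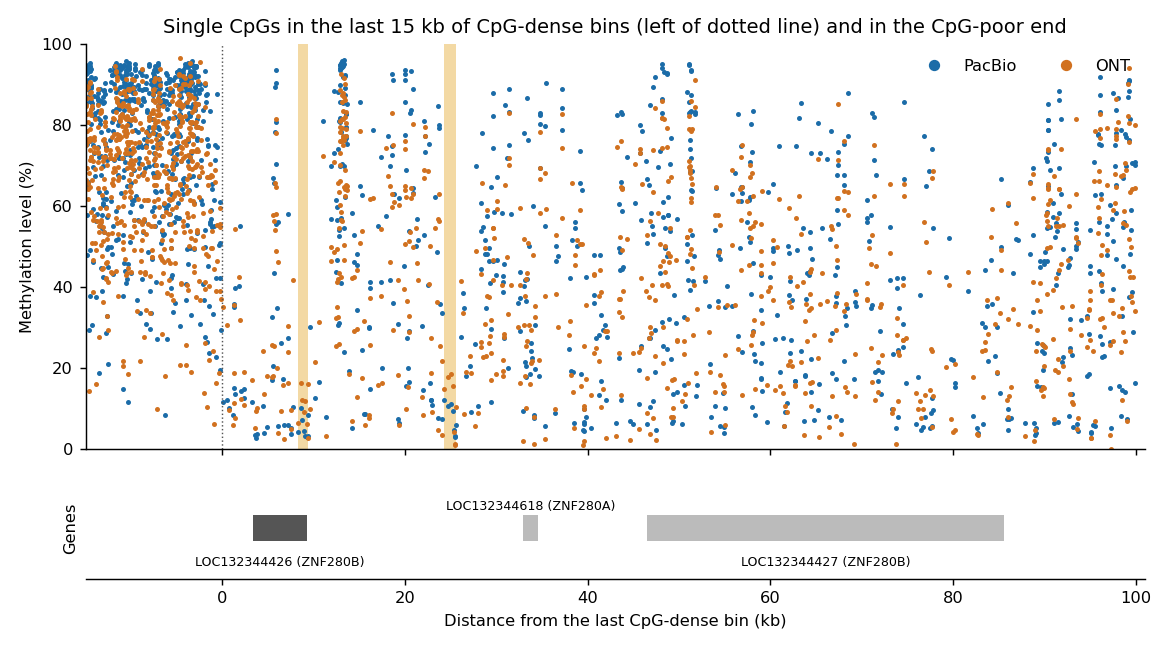
PacBio and ONT methylation level (%) of every CpG from 15 kb before to 100 kb after the end of the CpG-dense bins (dotted line), against distance from it (kb), with the protein-coding gene (dark) and pseudogenes (grey) below and the 2 runs of at least 5 unmethylated CpGs shaded. The 8 CpGs of the run at the higher-coordinate end of LOC132344426 lay between 3.10% and 10.2% on PacBio, and the CpGs left of the line were mostly far above them.

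Along the array itself levels drifted little. In 26 windows of 100 kb the PacBio mean ran from 73.6% (11685001 to 11785000) to 77.8% (11885001 to 11985000), so that the lowest and highest windows were only 100 kb apart. The ONT mean ran from 67.2% (12585001 to 12685000) to 70.8% (10985001 to 11085000). The difference between platforms was smallest where PacBio was lowest, at -3.47 points. It was largest in the window next to the TSPY array, at -8.78 points, but nearly as large at 11385001 to 11485000, at -8.77 points. The windows' depth lay between 27.4 and 40.3 reads per CpG. Over the 349 copies Spearman's rho of depth with level was 0.0930 on PacBio and -0.146 on ONT.

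Set beside its neighbours, the repeat part was most like the TSPY array, which had 244 bins, 215 CpGs per bin at the median and levels of 76.9% ± 2.60 on PacBio and 68.6% ± 1.60 on ONT. The MSY before the array had a like mean, 73.5% on PacBio and 64.3% on ONT, but a spread over bins of 17.9 points on PacBio. Its commonest CpG spacing was 7533 bp. The stretch from the segment to the centromere had 70.1% ± 18.6 and 51.9% ± 12.4, with a commonest CpG spacing of 1683 bp. The bins of the chromosome averaged 57.4% and 47.4%.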

How the data were processed

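Both libraries were analysed from the per-CpG files that the authors deposited. For PacBio, the authors called 5-methylcytosine with Primrose, aligned with pbmm2 and summarised both strands with pb-CpG-tools. The deposited file gives a percent score and the count of reads at each CpG, and the tool's estimate of how many were modified. For ONT, the authors used Dorado, Winnowmap and modbam2bed, and the deposited file gives a percent per strand with no read count. The ONT level is the mean of both rows. The files run in opposite directions, and positions were turned to the assembly by fixed offsets, with 20555 bp added to the ONT start of the lower row. All 975164 PacBio CpGs had both ONT rows.

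CpGs with at least 10 reads were averaged in bins of 5 kb, and bins were averaged without weights. Repeat copies were set by CpG positions, with a search range of 6500 to 8500 bp, a tolerance of 5 bp around shared positions and a minimum match of 70%. Copies had at first been set from the preceding copy alone, which drifted at insertions and deletions, and the match to all copies replaced this after levels had been seen. Levels for single CpGs are the scores. A run held at least 5 CpGs below 20% on both platforms, at most 500 bp apart. Genes came from the RefSeq table of ARS-UCD2.0, which gives no strand. Named were every gene that overlaps the segment, the 5 lowest and 5 highest PacBio bins, the 3 bins with most and fewest CpGs, all runs and the extreme windows of 100 kb. Alternatives were other coverage minimums, bin sizes, weights, thresholds, run rules and strand rows. The planned per-site test was not run, since ONT has no counts. The bins and lists were chosen with earlier results of these data known. Calculations ran under Python 3.11.15 with scipy 1.17.1, pandas 2.3.3 and numpy 2.4.6, and the scripts were tested on simulated data.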

Additional observations from a re-analysis of the deposited data

How the results depend on the processing

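A coverage minimum of 4 reads left every value as reported. The levels on PacBio and ONT and their difference were 74.5%, 67.7% and -6.86 points with bins of 10 kb, 74.5%, 67.7% and -6.86 with at least 20 CpGs per bin, 74.5%, 67.7% and -6.83 without CpGs with an ONT row at 0, and 75.5%, 68.6% and -6.93 as a mean over CpGs. Estimated counts gave 75.4% on PacBio and -7.79 points. The lower ONT row gave 67.3% and -7.14 points, and the upper 67.9% and -6.54. The Spearman correlation with the CpG count on PacBio and ONT was 0.459 and 0.491 at a minimum of 20 reads, 0.286 and 0.302 with bins of 10 kb, 0.452 and 0.490 with at least 20 CpGs, 0.456 and 0.496 without ONT zeros, 0.459 and 0.491 without extreme depth, and 0.278 and 0.237 across CpGs by density within 500 bp. It was 0.457 on PacBio from estimated counts. On ONT it was 0.491 with read weights, 0.462 for the lower row and 0.368 for the upper. Unmethylated CpGs numbered 94 below 10%, 2051 below 30% and 2118 on PacBio alone. Runs numbered 0 below 10%, 6 below 30%, 4 on PacBio alone, 1 with the upper ONT row, 3 with the lower, 3 with gaps of up to 1000 bp, 11 of at least 3 CpGs and 0 of at least 10. Without the CpG-poor end, a choice made after seeing the data, levels were 75.7% and 68.8% (-6.93 points), that correlation was 0.391 and 0.433, and there were 0 runs. No sign turned under any of these settings, and the causes were not tested. No paired analysis was possible because each platform holds 1 library, which also leaves no replicate to leave out. Counts of unmethylated CpGs are limited by the 33 reads behind a typical CpG.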
